A study of Mus musculus with 6 samples.

Results

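The genes described here are 39 named antiviral interferon-stimulated genes in basal epithelial cells of the mouse prostate. The list was chosen with earlier results of these data known, so its counts beside those over all genes are descriptive. RNA levels of the 39 genes were compared between the proximal and the distal ducts. All 39 were found among the 25273 genes with a value. In 29 of them the mean FPKM of the 6 libraries was 1 or more, and these were tested among 10255 genes, and 10 lay below that level and are described as detected or not. FPKM, the sequenced fragments divided by transcript length and by library depth, is a level per length.

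Type I interferons are secreted proteins that bind the receptor formed by Ifnar1 and Ifnar2. The receptor's kinases Jak1 and Tyk2 phosphorylate STAT factors such as Stat2, which joins Irf9 in a complex that binds the interferon-stimulated response element in promoters. The genes switched on in this way include sensors of viral RNA, effectors that block viral replication, and factors that extend or end the response.

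Basal cells line the prostate duct beneath the luminal cells. Proximal ducts lie next to the urethra, and distal ducts are the branches farther away. The study had 3 libraries of distal basal cells and 3 of proximal basal cells, all from C57BL/6 mice aged 8 to 12 weeks, and the labels name no genotype or treatment that differed between the groups. Dissociated cells were stained with fluorescent antibodies and sorted, but the antibodies, the gates and the number of animals behind a library are not given in the sources used here. It is also not stated that libraries of the same group stem from different mice, and the p-values therefore reflect only how far these libraries vary, which can be technical. C57BL/6 mice are known to carry defective copies of Mx1 and Oas1b, which limits them as a model for these antiviral proteins.

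The widths of the deposited intervals correspond to 22800000 to 29200000 fragments per library. Krt5, a keratin that defines basal cells, was at 340 to 437 FPKM in the distal and at 583 to 674 FPKM in the proximal libraries, and Krt14, its keratin partner, was at 2283 to 3397 FPKM against 2121 to 2276 FPKM. Of the 10 basal markers tested, 4 passed as higher in the proximal libraries, Krt5 among them, and 0 as lower. Over all genes tested these shares were 4.52% and 2.5%. Krt14 and Krt17 lay lower in every proximal library without passing (limma adjusted p = 0.365 and 0.171), and Trp63, the basal transcription factor, had a proximal mean 0.584 times the distal mean with overlapping groups (0.170). The groups separated along the leading principal component (47.2% of the variance), and both libraries numbered 1 stood apart from the rest along the next component (25.4%). Without these 2 libraries the same 6 members were called as with them, and 1 more member, Irf7, passed as lower.

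Markers of other cell types were measured beside the interferon genes. The 9 T and NK cell markers with values summed to 0.184 to 0.223 FPKM in the distal and 0.0821 to 0.133 FPKM in the proximal libraries, with 5 of the 9 at 0 in all, and the pan-leukocyte gene Ptprc was at most 0.0436 FPKM. The summed pan-immune list, mostly Arhgdib, was at 16.4 to 21.1 FPKM in the distal and 22.7 to 24.7 FPKM in the proximal libraries, without overlap, and 0 of the 3 tested passed. Dendritic cell markers summed to 7.58 to 14.0 FPKM against 9.44 to 15.5 FPKM, and B cell markers to 0.640 to 1.70 FPKM against 0.381 to 1.28 FPKM. The summed macrophage markers lay at 18.3 to 21.6 FPKM against 19.2 to 23.8 FPKM. Of these 12 markers 3 were tested, and 1 of them, Cd14, passed as higher in the proximal libraries. Csf1r, under 1 FPKM, was lower in every proximal library, at 0.299 to 0.370 FPKM against 0.0523 to 0.206 FPKM. For the other 10 the groups overlapped. The summed endothelial markers were at 6.51 to 19.3 FPKM in the distal and 27.8 to 36.3 FPKM in the proximal libraries, without overlap, and 5 of the 8 tested passed as higher. Fibroblast markers, whose sum was mostly Dcn, totalled 775 to 818 FPKM in the distal and 708 to 778 FPKM in the proximal libraries, while 6 of the 8 tested passed as higher in the proximal ones. Markers of proximal luminal cells summed to 964 to 1033 FPKM against 1846 to 2132 FPKM, and 7 of the 9 tested passed as higher. Among the called markers, the endothelial Cdh5, Kdr and Tie1, the fibroblast Pdgfrb and the proximal luminal Psca had distal means under 1 FPKM. These genes reached the level for testing through the proximal libraries. The background over all genes tested was 4.52% passing as higher and 2.5% as lower. Immediate early genes, which tissue dissociation is known to induce, summed to 9574 to 17858 FPKM in the distal and 6902 to 8804 FPKM in the proximal libraries, and 2 of the 14 tested passed as lower. The part of these cells and of the dissociation in the results that follow was not tested. In such sorted bulk samples, fewer cells of a type and less RNA per cell cannot be told apart.

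**Figure D1:**
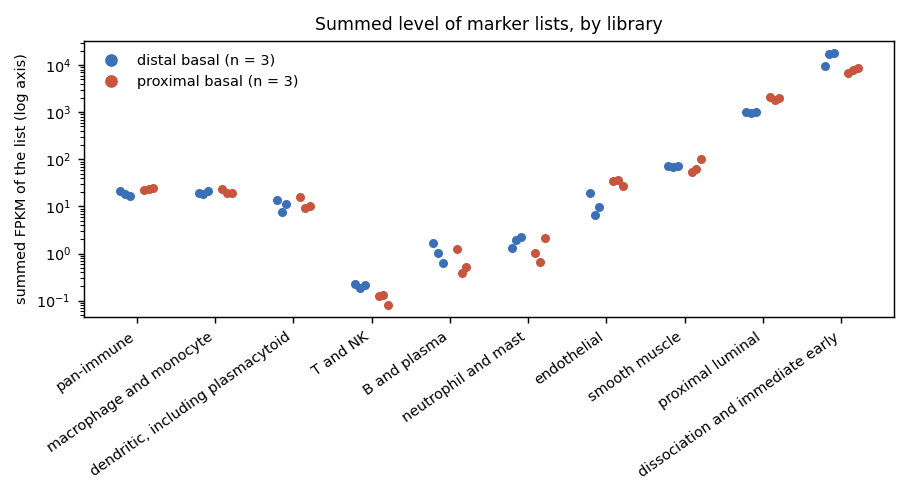
Summed FPKM of 10 marker lists on a log axis, with 1 point per library, distal and proximal basal. The endothelial and proximal luminal sums of the groups do not overlap and are higher in the proximal libraries, whereas the T and NK cell sum is at most 0.223 FPKM.

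Of the 29 tested members, 6 were higher in proximal than in distal basal cells and 0 were lower, by limma on log2(FPKM + 1) with an adjusted p under 0.05. Over all genes tested, 4.52% passed as higher and 2.5% as lower. The 6 were Ifit1, which binds foreign RNA, its relative Ifit3, Isg15, Rsad2 (viperin), Oasl1 and Rtp4. Isg15 is a ubiquitin-like protein, and Rsad2 is an enzyme that makes a chain-terminating nucleotide. Oasl1 is a catalytically inactive relative of the oligoadenylate synthetases, and Rtp4 is a chaperone of membrane receptors. The proximal means of the 6 were 1.96 to 4.75 times the distal means. The remaining 23 did not pass. Without distal library 2, the count of higher members was 3 (Ifit1, Rsad2 and Rtp4). At an unadjusted p under 0.05 there were 9 higher members and 2 lower ones, Irf7 and Ifih1, of the 29, where 12.1% of all genes tested were higher and 11.9% lower at that threshold. Rsad2 and Rtp4 had distal means under 1 FPKM and reached the level for testing through the proximal libraries.

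Among all tested members, the log2 difference was positive for 21 and negative for 8 of the 29, with a median of 0.21, and over all genes tested 48.5% were positive and the median was -0.01. The groups did not overlap for 9 members with higher proximal values, among a background of 15.8% of all genes tested, and for 2 with lower proximal values, among a background of 13%. Without distal library 1 the members' median fell to 0.13.

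**Figure D2:**
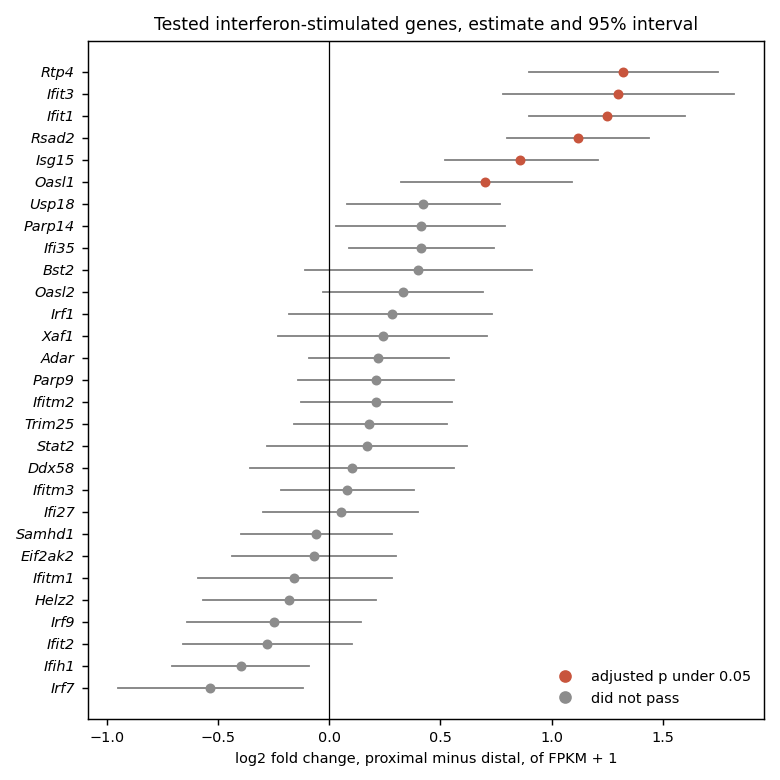
Proximal minus distal difference on the log2(FPKM + 1) scale for the 29 tested members, with the limma estimate as a point and its 95% interval as a bar. The 6 called members have estimates of 0.70 to 1.32, and the others lie on both sides of 0.

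The Ifit genes form a cluster on chromosome 19 in the mm10 build, with Ifit2 at 34550694 to 34576419, Ifit3 at 34583531 to 34588731 and Ifit1 at 34640871 to 34650009. Ifit1bl1, Ifit3b and Ifit1bl2 lie between Ifit3 and Ifit1. The Ifit1 protein binds viral RNA and hinders its translation. Ifit1 was at 1.42, 1.19 and 1.08 FPKM in distal libraries 1, 2 and 3, against 5.17, 4.03 and 3.8 FPKM in proximal libraries 1, 2 and 3. Values are given in this order of libraries throughout. Every proximal value lay above every distal value, with a wide gap between the groups. The Ifit1 means were 1.23 ± 0.175 and 4.33 ± 0.735 FPKM (SD, n = 3 each), a ratio of 3.52. The log2 difference of Ifit1 was 1.25 (SE 0.15, limma adjusted p = 0.00327). These levels correspond to about 66 to 85 fragments per distal library and 227 to 323 per proximal library.

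Ifit3 was at 2.35, 1.18 and 0.909 FPKM in the distal libraries, against 5.48, 5.30 and 4.10 FPKM in the proximal ones. The groups did not overlap, and distal library 1 was the highest of its group. The Ifit3 means were 1.48 ± 0.768 and 4.96 ± 0.753 FPKM (SD, n = 3 each), and its log2 difference was 1.30 (SE 0.22, limma adjusted p = 0.0143). The call was lost without distal library 2 (limma adjusted p = 0.0670) and without proximal library 2 (0.0747), and with no filter on low values (0.0502). Of the 50-base stretches of Ifit3, 51.2% also occur in its near copy Ifit3b, so the split of reads between the 2 genes is uncertain. Ifit3b itself is described among the other interferon-stimulated genes below.

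Ifit2, the neighbour of Ifit3, did not pass. It was at 3.43, 4.78 and 4.61 FPKM in the distal libraries, against 3.79, 2.70 and 3.53 FPKM in the proximal ones, with overlapping groups. The log2 difference of Ifit2 was -0.28 (SE 0.16, 95% interval -0.66 to 0.10, limma adjusted p = 0.340).

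Isg15 is a ubiquitin-like protein that is attached to other proteins during the antiviral response, and its gene lies on chromosome 4 (156199424 to 156200818). It was at 6.25, 5.86 and 4.53 FPKM in the distal libraries, against 12.5, 9.77 and 10.4 FPKM in the proximal ones. The groups did not overlap. The Isg15 means were 5.55 ± 0.900 and 10.9 ± 1.43 FPKM (SD, n = 3 each), a ratio of 1.96 and a log2 difference of 0.86 (SE 0.15, limma adjusted p = 0.0147). Isg15 missed the threshold without distal library 2 (adjusted p = 0.0580) and without distal library 3 (0.0541).

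Usp18 removes Isg15 from proteins and dampens receptor signaling. It was at 1.85, 1.805 and 1.91 FPKM in the distal libraries, against 3.07, 3.25 and 2.22 FPKM in the proximal ones, again without overlap. The log2 difference of Usp18 was 0.42 (SE 0.15, unadjusted p = 0.0229, limma adjusted p = 0.136), which did not pass.

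Rsad2 and Cmpk2, a nucleotide kinase, are neighbours on chromosome 12, on opposite strands (26442746 to 26456452 and 26469204 to 26479837). Rsad2 was at 0.552, 0.464 and 0.341 FPKM in the distal libraries, against 2.19, 2.19 and 2.07 FPKM in the proximal ones. The proximal libraries were close to each other and all far above the distal ones. The Rsad2 means were 0.452 ± 0.106 and 2.15 ± 0.0659 FPKM (SD, n = 3 each), the largest ratio of the 6 at 4.75, with a log2 difference of 1.12 (SE 0.14, limma adjusted p = 0.00355). Cmpk2 stood under 1 FPKM, at 0.290, 0.125 and 0.264 FPKM in the distal libraries against 0.659, 0.743 and 0.667 FPKM in the proximal ones. The Cmpk2 groups did not overlap, and the proximal mean was 3.05 times the distal mean. With no filter on low values the log2 difference of Cmpk2 was 0.46 (SE 0.07, limma adjusted p = 0.0312), and the other 9 members under 1 FPKM did not pass, with adjusted p values from 0.0821 (Zbp1) to 0.878 (Oas1b).

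Rtp4 lies on chromosome 16 (23520291 to 23614222). It was at 1.502, 0.643 and 0.804 FPKM in the distal libraries, against 3.67, 4.30 and 3.70 FPKM in the proximal ones. Distal library 1 was the highest of its group and still well under the lowest proximal library. The Rtp4 means were 0.983 ± 0.457 and 3.89 ± 0.358 FPKM (SD, n = 3 each), a ratio of 3.96, and its log2 difference of 1.32 was the largest of the 29 (SE 0.18, limma adjusted p = 0.00614). Ifit1, Rsad2 and Rtp4 kept their calls in every alternative in which they were tested, with adjusted p values up to 0.0233, 0.0243 and 0.0384.

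**Figure D3:**
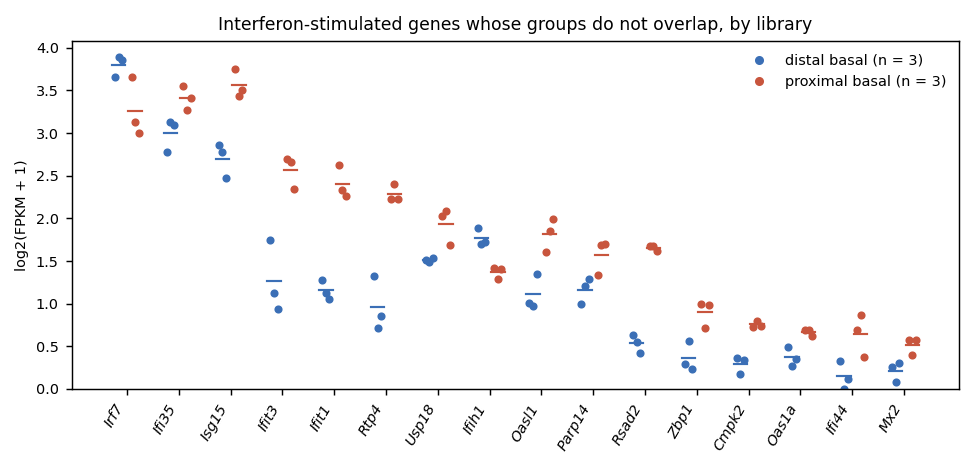
Log2(FPKM + 1) per library for the 16 members whose distal and proximal values do not overlap, with 1 point per library and a bar at each group mean. In 14 of them the proximal libraries are the higher group, and Irf7 and Ifih1 run the other way.

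Promoter sequence from RefSeq (GRCm38.p6, 250 bases before to 50 after each start) was used for 28 of the 39 members. The core of the interferon-stimulated response element, searched as GAAANNGAAA on both strands, was found in 13 of these 28 genes (46.4%), against 3.99% of all 27025 genes with a window. Among the 6 called members, 5 had a window and 4 held a match upstream of the start. The same 4 were those with a match anywhere in the window. The 3.99% counts matches anywhere in the window, and the share of all genes with an upstream match was not computed. Among the 23 tested members that did not pass, 19 had a window, of which 3 held a match upstream of the start and 7 a match anywhere in it. The 4 called members are shown because they carry the differences described above, with 15 bases on either side of the outermost matches, on the strand of the gene. They lie at chr19:34640770-34640828 (plus strand) for Ifit1, chr19:34583358-34583431 (plus strand) for Ifit3, chr4:156200860-156200911 (minus strand) for Isg15 and chr12:26456548-26456587 (minus strand) for Rsad2. Capitals mark the bases that match, in 2 places for Ifit1 and Ifit3, in 3 overlapping ones for Isg15 and in 1 for Rsad2.
Ifit1: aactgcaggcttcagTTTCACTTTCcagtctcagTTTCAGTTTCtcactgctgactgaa
Ifit3: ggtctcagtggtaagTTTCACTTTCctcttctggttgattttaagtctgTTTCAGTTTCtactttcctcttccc
Isg15: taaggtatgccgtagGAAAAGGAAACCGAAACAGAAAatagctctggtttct
Rsad2: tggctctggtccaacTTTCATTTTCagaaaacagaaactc

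Matches also occurred in members that did not pass. Bst2, Ifitm2 and Stat2 were the 3 tested members that did not pass and held a match upstream of the start. Bst2 held 2 overlapping matches, 130 to 115 bases before its start, and Ifitm2 and Stat2 held 1 match each. The stretches of Ifitm2 and Stat2 are given for comparison, with capitals as before. They lie at chr7:140955983-140956022 (minus strand) and chr10:128270261-128270300 (plus strand).
Ifitm2: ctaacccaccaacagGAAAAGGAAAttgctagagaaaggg
Stat2: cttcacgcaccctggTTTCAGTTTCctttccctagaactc
Oasl1 was called and held no match in its window. The gamma-activated site, an element of the type II interferon response searched as TTCNNNGAA, occurred in 9 of the 28 members (32.1%) against 9.55% of all genes, and in none of the 4 called members shown. A match describes letters in a window and is not a measured binding site.

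The oligoadenylate synthetases activate RNase L on meeting double-stranded RNA, and the 2 Oasl proteins are relatives without that activity (Oasl1) or with it retained (Oasl2). Oasl1 was at 1.02, 0.970 and 1.54 FPKM in the distal libraries, against 2.05, 2.60 and 2.97 FPKM in the proximal ones, without overlap. The Oasl1 means were 1.17 ± 0.314 and 2.54 ± 0.464 FPKM (SD, n = 3 each), and its log2 difference was 0.70 (SE 0.17, limma adjusted p = 0.0465). This was the least stable of the 6 calls, since leaving out distal library 1, 2 or 3 gave adjusted p values of 0.0674, 0.177 and 0.0667, and leaving out proximal library 2 or 3 gave 0.167 and 0.157. It was also lost with a pseudocount of 0.1 (0.0530) and with no filter on low values (0.0954). Its neighbour Oasl2 was at 2.93, 3.88 and 3.49 FPKM against 3.74, 5.34 and 4.67 FPKM, with overlapping groups and a log2 difference of 0.33 (SE 0.16, limma adjusted p = 0.245).

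Oas1a, Oas1b, Oas2 and Oas3 all lay under 1 FPKM. Oas1a was at 0.412, 0.201 and 0.280 FPKM in the distal libraries, against 0.619, 0.621 and 0.541 FPKM in the proximal ones, so that its groups did not overlap. Of its 50-base stretches, 57.6% also occur in Oas1g, and the split of reads between the 2 genes is uncertain. Oas1b ranged from 0.133 to 0.578 FPKM with overlapping groups. Oas2 was above 0 in 4 libraries and never above 0.157 FPKM. Oas3 was above 0 in 4 libraries with at most 4 fragments in any, and its deposited interval included 0 in all 6.

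The RNA sensors recognise viral RNA in the cytoplasm. Ifih1 (MDA5) ran against the 6 called members, at 2.71, 2.24 and 2.31 FPKM in the distal libraries and 1.67, 1.44 and 1.65 FPKM in the proximal libraries. All 3 proximal values lay under all distal values. The Ifih1 difference was -0.40 on the log2 scale (SE 0.13, unadjusted p = 0.0167, limma adjusted p = 0.114) and did not pass.

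Ddx58 (RIG-I) was at 2.29, 3.97 and 3.73 FPKM against 2.80, 3.83 and 4.19 FPKM, with a log2 difference of 0.10 (SE 0.20, limma adjusted p = 0.809). Dhx58 (LGP2), which tunes the other pair of sensors, ranged from 0.0766 to 0.437 FPKM with overlapping groups. Trim25, the ubiquitin ligase that acts on RIG-I, was at 8.60, 11.1 and 12.4 FPKM against 10.9, 13.2 and 12.3 FPKM (log2 difference 0.18, SE 0.15, limma adjusted p = 0.504). Eif2ak2 (PKR), a kinase that halts translation on double-stranded RNA, and Adar, which edits such RNA, differed by -0.07 (SE 0.16) and 0.22 (SE 0.14) on the log2 scale, and neither passed. Zbp1, a sensor of Z-form nucleic acid, was under 1 FPKM at 0.220, 0.478 and 0.176 FPKM in the distal libraries and 0.999, 0.638 and 0.971 FPKM in the proximal ones, without overlap.

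None of the 4 tested members that act as transcription factors passed, Irf1, Irf7, Irf9 and Stat2. Irf7, which drives the interferon genes themselves, was at 11.7, 13.8 and 13.4 FPKM in the distal libraries, against 11.6, 7.76 and 7.01 FPKM in the proximal ones. The groups did not overlap, but proximal library 1 was only just under distal library 1. The Irf7 means were 12.97 ± 1.16 and 8.79 ± 2.46 FPKM (SD, n = 3 each), with a log2 difference of -0.54 (SE 0.18, unadjusted p = 0.0173, limma adjusted p = 0.115). Without proximal library 1 the Irf7 difference was -0.73 and passed as lower (limma adjusted p = 0.0174). Without both libraries numbered 1, an alternative chosen after seeing the data, it was -0.80 (limma adjusted p = 0.00584).

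Irf9 and Stat2 are the members that act together on the response element. Irf9 was at 9.34, 13.4 and 13.9 FPKM against 8.77, 9.89 and 11.4 FPKM (log2 difference -0.25, SE 0.17, limma adjusted p = 0.412). Stat2 was at 1.82, 2.91 and 2.88 FPKM against 2.35, 2.82 and 3.76 FPKM (log2 difference 0.17, SE 0.19, limma adjusted p = 0.639). Irf1, also induced by type II interferon, was among the more abundant members at 24.7, 34.4 and 38.3 FPKM against 30.8, 43.1 and 44.2 FPKM, and its log2 difference was 0.28 (SE 0.20, limma adjusted p = 0.433). In all 3 genes the library numbered 1 was the lowest of its group, and the groups overlapped.

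The most abundant members were membrane proteins of the Ifitm family, which block the entry of enveloped viruses. Ifitm3 was at 1266, 1103 and 1181 FPKM in the distal libraries, against 1171, 1210.5 and 1367 FPKM in the proximal ones. The log2 difference of Ifitm3 was 0.08 (SE 0.13, 95% interval -0.22 to 0.38, limma adjusted p = 0.768), with overlapping groups. Ifitm2 was at 166, 133 and 126 FPKM against 191, 146 and 156 FPKM (log2 difference 0.21, SE 0.15, limma adjusted p = 0.421), and Ifitm1 at 6.10 to 9.93 FPKM against 5.89 to 8.45 FPKM. Neither passed. Of the 50-base stretches of Ifitm2, 48.5% also occur in other annotated genes, among them Gm45717, Gm11951 and Gm8865, so its level is uncertain.

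Bst2 (tetherin), which holds budding virus at the membrane, was at 6.52, 4.42 and 3.44 FPKM against 8.21, 5.26 and 6.22 FPKM, with overlapping groups and a log2 difference of 0.40 (SE 0.22, limma adjusted p = 0.318). Ifi27 was at 20.7, 19.7 and 16.8 FPKM against 24.5, 17.5 and 17.7 FPKM (log2 difference 0.05, SE 0.15, limma adjusted p = 0.888).

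Among the remaining tested members, Ifi35 and the ADP-ribosyltransferase Parp14 had non-overlapping groups without passing. Ifi35 was at 5.85, 7.73 and 7.52 FPKM against 10.8, 8.62 and 9.61 FPKM, a log2 difference of 0.41 (SE 0.14, limma adjusted p = 0.124). Parp14 was at 0.997, 1.30 and 1.45 FPKM against 1.53, 2.22 and 2.25 FPKM, a log2 difference of 0.41 (SE 0.16, limma adjusted p = 0.175). Samhd1, which depletes the nucleotides that viruses use, Helz2, Xaf1 and Parp9, the neighbour of Parp14, differed by between -0.18 and 0.24 on the log2 scale, with overlapping groups. A transcript that matched no gene overlaps Ifi35, and Dtx3l overlaps Parp9, and the labels do not say whether strand was kept.

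All 10 members under 1 FPKM had a higher proximal mean, and the share of such genes over the whole series was not computed. In 5 of them the groups did not overlap, with the proximal libraries higher, against 7.78% of genes under 1 FPKM with a value above 0. That background was not matched on level and holds genes at 0 in some libraries, whereas 7 of the 10 members were above 0 in all 6. The 5 without overlap were Cmpk2, Zbp1, Oas1a, Mx2 and Ifi44. Mx2, a dynamin-like GTPase, was at 0.195, 0.0610 and 0.231 FPKM in the distal libraries, against 0.493, 0.317 and 0.489 FPKM in the proximal ones. Ifi44 was at 0.257, 0 and 0.0873 FPKM against 0.613, 0.820 and 0.297 FPKM. For Oas1a, Zbp1 and Cmpk2 the deposited interval lay above 0 in all 6 libraries, and for the other 7 it included 0 in at least 1. Mx1, whose protein is not functional in this strain, was at 0.0543 to 0.239 FPKM in the distal and 0.183 to 0.262 FPKM in the proximal libraries, about 4 to 13 fragments each.

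**Figure D4:**
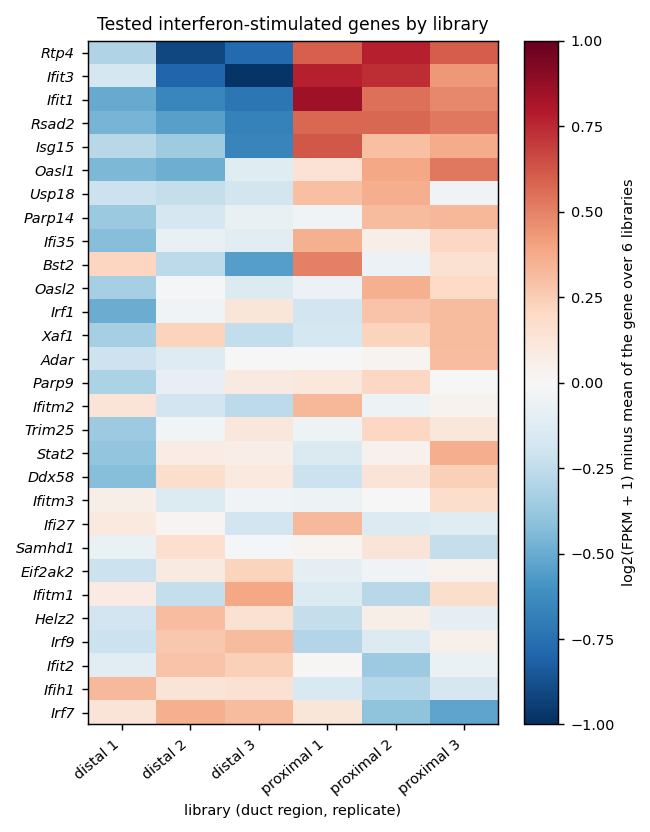
Deviation of log2(FPKM + 1) from each gene's mean over the 6 libraries, for the 29 tested members (rows) and the 6 libraries (columns). The called members are low in the distal and high in the proximal columns, and the others deviate in either direction.

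Across libraries, the median deviation of the members from their own means on the log2 scale was -0.21, -0.08 and -0.04 in the distal libraries and 0.01, 0.13 and 0.18 in the proximal ones. Distal library 1 was the lowest for the list as a whole. For the 6 called members, however, distal library 1 was the highest distal library, at -0.38 against -0.60 and -0.70, and the proximal libraries were at 0.61, 0.56 and 0.50.

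The ligands of the pathway were scarcely detected. Of 20 genes for type I and type III interferons, 0 reached 1 FPKM, 14 were listed at 0 in all libraries, and 19 stayed under 0.2 FPKM in every library. Ifng, the type II interferon, was listed at 0 in all. Ifne, an interferon known from the epithelium of the reproductive tract, was listed at 0 in the distal libraries, against 0.506, 0.186 and 0.231 FPKM in the proximal ones, about 6, 2 and 3 fragments, with an interval above 0 in proximal library 1 only. Ifnz was above 0 in all 6 libraries, at 0.0793 to 0.0982 FPKM in the distal and 0.0181 to 0.0674 FPKM in the proximal ones, about 1 to 3 fragments each. Ifna4 and Ifnb1 were above 0 in distal library 3 alone, Ifna6 in proximal library 3 alone and Ifnk in proximal library 1 alone, none above 0.0970 FPKM.

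The receptors were expressed in both groups. Ifnar1 was at 3.95, 5.60 and 7.04 FPKM in the distal libraries, against 4.61, 7.06 and 8.41 FPKM in the proximal ones (log2 difference 0.23, SE 0.24, limma adjusted p = 0.596). Ifnar2 was at 14.3, 14.1 and 16.4 FPKM against 14.96, 20.4 and 18.6 FPKM (log2 difference 0.24, limma adjusted p = 0.319). Neither subunit of the type I receptor passed. Of the 6 receptor genes tested, 1 was called, the type II receptor subunit Ifngr2, at 8.53, 8.60 and 10.2 FPKM against 12.6, 16.4 and 20.02 FPKM (log2 difference 0.76, SE 0.17, limma adjusted p = 0.0375). The Ifngr2 call was lost without any 1 of distal libraries 1, 2 and 3 and proximal libraries 2 and 3, with adjusted p values up to 0.148, and with no filter on low values (0.0784). Its partner Ifngr1 was at 16.6, 21.3 and 25.9 FPKM against 24.9, 28.8 and 33.4 FPKM (log2 difference 0.44, limma adjusted p = 0.170). The type III receptor pairs Ifnlr1 with Il10rb. Ifnlr1 was at 3.77, 5.73 and 6.95 FPKM against 3.11, 5.43 and 6.10 FPKM, and Il10rb at 3.78, 4.91 and 6.02 FPKM against 6.20, 9.12 and 11.5 FPKM (log2 difference 0.73, limma adjusted p = 0.0949).

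Of the 10 JAK, STAT and IRF genes tested outside the members, 1 was called. Jak1 was at 65.0 to 72.8 FPKM against 62.5 to 73.3 FPKM (limma adjusted p = 0.997). Irf3, the factor that responds directly to the sensors, was at 9.55, 11.2 and 11.7 FPKM against 9.30, 9.76 and 10.6 FPKM (limma adjusted p = 0.599). The called gene, Irf5, was listed at 0 in all 3 distal libraries, whereas the proximal ones were at 9.28, 9.03 and 9.11 FPKM (limma adjusted p = 1.24e-05). The proximal Irf5 signal lay in a transcript model of 2190 bases, whose distal upper bounds were 0.0341 to 0.0436 FPKM, with no failed status. A longer Irf5 transcript model, at 0 in every library, overlaps Tnpo3, whose expressed transcript was at 23.5 to 33.0 FPKM. An exact 0 in these files can be a failed estimate, and whether it is one here was not tested.

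Of 12 sensors and adaptors tested outside the members, 0 passed limma's adjusted threshold, with 0 higher and 2 lower at an unadjusted p under 0.05, where 12.1% and 11.9% of all genes tested were. Tmem173 (STING), the adaptor of cytoplasmic DNA sensing, was at 20.7, 20.3 and 23.5 FPKM against 14.1, 15.6 and 19.8 FPKM, lower in every proximal library without passing (log2 difference -0.37, limma adjusted p = 0.156). Mavs, the mitochondrial adaptor of RIG-I and MDA5, was at 2.05, 4.63 and 3.84 FPKM against 2.36, 2.59 and 2.95 FPKM, with overlapping groups. Myd88, the adaptor of most Toll-like receptors, was at 28.5, 31.3 and 34.5 FPKM against 24.8, 25.6 and 27.3 FPKM, lower in every proximal library without passing (limma adjusted p = 0.179). Tlr3, which senses double-stranded RNA in endosomes, stayed between 0.265 and 0.594 FPKM, and Cgas, the sensor of cytoplasmic DNA, between 0.425 and 1.00 FPKM. Tlr7 and Tlr9 were at most 0.0604 FPKM, and Tlr4 was at 3.69 to 4.45 FPKM against 3.54 to 5.23 FPKM (limma adjusted p = 0.877). Of 15 negative regulators 0 passed, with 2 higher and 5 lower at an unadjusted p under 0.05 (12.1% and 11.9% over all genes tested). Socs1, which inhibits the JAK kinases, was at 11.2, 12.6 and 11.7 FPKM against 9.29, 4.73 and 5.78 FPKM (log2 difference -0.80, SE 0.21, limma adjusted p = 0.0588).

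**Figure D5:**
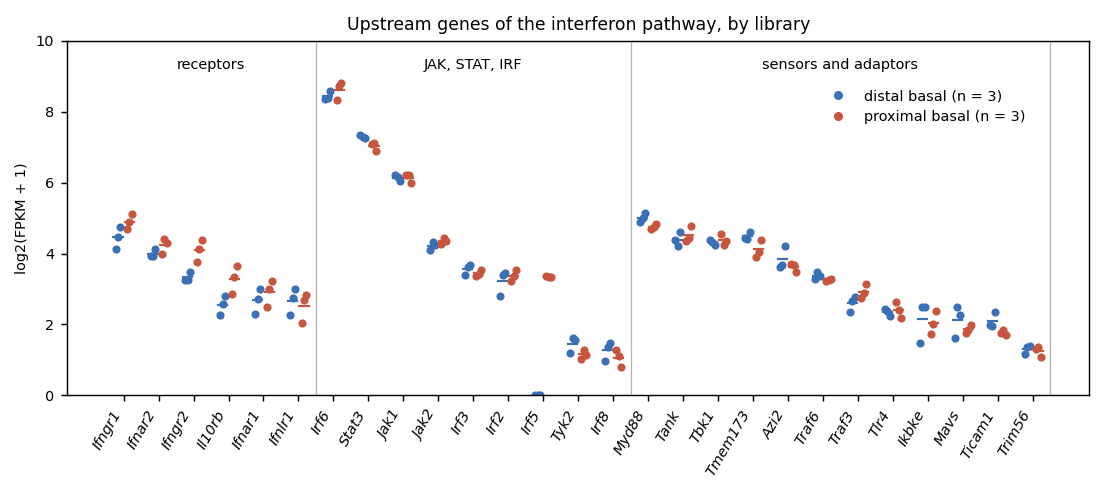
Log2(FPKM + 1) per library, with a bar at each group mean, for the tested receptors, 9 of the JAK, STAT and IRF genes, and the tested sensors and adaptors, distal and proximal. The groups overlap for Ifnar1, Ifnar2 and Jak1, and Ifngr2 is higher in all 3 proximal libraries.

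A further list of 71 entries for interferon-stimulated genes, with Ifi209 entered more than once, held 29 genes that were tested. Of these, 4 passed as higher and 0 as lower, and 25 did not pass. At an unadjusted p under 0.05, 11 of the 29 were higher and 3 lower, against 12.1% and 11.9% of all genes tested, and the median log2 difference was 0.19. Ifit3b and Ifi202b had distal means under 1 FPKM and reached the level for testing through the proximal libraries. Ifit3b was at 0.467, 0.309 and 0.315 FPKM against 2.03, 2.19 and 1.22 FPKM (log2 difference 1.03, SE 0.18, limma adjusted p = 0.0149), and the call was lost without distal library 2 (0.0670) and distal library 3 (0.0610). The DNA-binding Ifi202b was at 0.300, 0.128 and 0.469 FPKM against 2.43, 1.48 and 1.72 FPKM. Its log2 difference was 1.14 (SE 0.18, limma adjusted p = 0.0109) and missed the threshold without distal library 2 (0.0524). The galectin Lgals9 was at 1.78, 1.45 and 1.46 FPKM against 3.56, 2.38 and 3.32 FPKM (log2 difference 0.66, limma adjusted p = 0.0465). The galectin-binding Lgals3bp was at 1.69, 2.15 and 1.36 FPKM against 3.71, 3.67 and 3.29 FPKM (log2 difference 0.75, limma adjusted p = 0.0258). The Lgals9 call was lost without distal library 2 or 3 or any 1 of the proximal libraries (limma adjusted p up to 0.172), and the Lgals3bp call without distal library 3 or proximal library 2 or 3 (up to 0.118). With no filter on low values their adjusted p values were 0.101 and 0.0684. Cxcl10, a chemokine and well-known interferon target, ran the other way at 325, 387 and 421 FPKM against 305, 249 and 316 FPKM, with every proximal value under every distal one (log2 difference -0.38, limma adjusted p = 0.158).

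The deposited intervals, which hold counting and assignment error within a library, were set beside these differences. There were 18 members with a single expressed transcript. For 5 of them, Ifit1, Ifit3, Isg15, Rtp4 and Cmpk2, all distal intervals lay under all proximal intervals. The share of all genes with intervals apart in this way was not computed, so this count has no background. It describes again the differences given above. For Ifit1 the highest distal upper bound was 1.75 FPKM and the lowest proximal lower bound 3.33 FPKM. For Isg15 the corresponding bounds were 7.67 and 8.03 FPKM. With 3 libraries against 3, an exact permutation test of a single gene could not go below p = 0.1.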

How the data were processed

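RNA of sorted basal cells was amplified with random and oligo-dT primers, and the cDNA was turned into Illumina libraries, per the labels' protocols. TopHat and Cufflinks and the mm10 build are named in the submitters' processing notes, and bcl2fastq 1.8.3 with them. The authors deposited FPKM per transcript with lower and upper bounds, 1 file per library, without gene names.

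The 63241 transcripts were matched to GENCODE M21 genes by span and length (49609) or by exons (3714), and FPKM was summed per gene. The 53323 matched transcripts held 93.9% of the FPKM. Fragments per gene are approximate, from FPKM, length and the depth implied by the interval widths. Genes whose mean was 1 FPKM or more were tested with limma 3.58.1 (R 4.3.3) on log2(FPKM + 1), with a mean-variance trend, no covariate, 2 groups of 3, 2-sided, and Benjamini-Hochberg adjustment over all 10255 genes. The pseudocount makes differences of low genes smaller than their ratios. Scripts were tested on simulated data. The text names every member by role, with values per library for members that passed, had non-overlapping groups or were among the 8 most abundant, and from the pathway lists the called genes, receptors, Irf3 and sensors and ligands with values. Jak1, Tyk2, Socs1, Cxcl10, the adaptors and the basal markers were added after their values were seen. So were Csf1r and the named endothelial, fibroblast and proximal luminal markers. The members and lists were chosen with earlier results of these data known. Alternatives covered the pseudocount, the filter, scaling, trend, matching, a replicate block and each library left out. 1 gene of the pathway lists is not reported here.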

Additional observations from a re-analysis of the deposited data

How the results depend on the processing

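With a pseudocount of 0.1, 5 of the 6 members higher in proximal cells stayed called (Oasl1 lost). With no filter on low values 4 of the 6 did (Ifit3 and Oasl1 lost) and Cmpk2 was added, for a count of 5. All 6 stayed called under median-ratio scaling, quantile normalization, no variance trend and close transcript matches only. Leaving out 1 library gave 3 to 6 higher members and 0 to 1 lower. At a mean of at least 5 FPKM, where 12 members were tested, 1 was higher. The members' median log2 difference was 0.13 to 0.25 when 1 library was left out. Without both libraries numbered 1 (chosen after seeing the data), 6 were higher and 1 lower.

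Over all genes tested, leaving out 1 library gave 202 to 533 higher and 46 to 622 lower. At a mean of at least 5 FPKM the counts were 273 and 168, with no filter 137 were lower, and without both libraries numbered 1 there were 908 higher and 1385 lower. For the pathway lists, leaving out 1 library gave 2 to 5 higher and 0 to 2 lower, a mean of at least 5 FPKM gave 1 higher, median-ratio scaling and quantile normalization each gave 1 lower, and leaving out both libraries numbered 1 gave 10 higher and 5 lower. The cause of these moves was not tested.

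Libraries with the same number correlated at 0.38, 0.04 and 0.29, and those with unlike numbers at -0.37 to 0.16. Not every library correlated best with its own number, and the numbers were not taken as a pairing. Whether libraries of the same number share an effect was not tested. With a replicate block, 880 genes were higher and 732 lower, 7 members were higher (Irf1 added, limma adjusted p = 0.0499) and 0 lower, and 12 pathway genes were higher and 4 lower.

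Some members that did not pass changed sign near 0 when 1 library was left out. Ddx58 ranged from -0.09 (without distal library 1) to 0.23, Eif2ak2 from -0.19 to 0.03 (without distal library 3), and Samhd1 from -0.14 to 0.05 (without proximal library 3, and 0.01 without distal library 2). Ifi27 ranged from -0.10 (without proximal library 1, and -0.04 without distal library 3) to 0.13, and was at -0.04 without both libraries numbered 1. Members with few fragments (Oas2, Oas3, Mx1) were too shallow to compare.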
